A study of Mus musculus with 48 samples.

Results

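The genes described here are those of glycolysis and of the response to hypoxia-inducible factor (HIF), measured in a mouse myeloid leukemia model while the transcription factor C/EBPα was switched on. The list holds 36 genes: 16 glycolytic enzymes, 6 transporters and flux regulators, 13 other targets of the hypoxia response, and Hif1a itself. A probe set annotated to 1 gene was found for 32 of them, by current symbol or an older one, among 18193 genes on the array, and the probe set with the highest mean signal stood for the gene. Of these, 30 passed the filter on low signals and were tested, beside 12764 genes in all. Gapdh was measured only by the array's control probe sets, and its signals are described without a test. Bnip3l shared its probe sets with another annotation, and Gpi1 and Eno1 were not analysed here. Eno2 and P4ha2 had a probe set of their own, with mean signals of 5.58 and 3.52 over the 48 arrays, and were too dim to be tested.

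All cells were 32D, a mouse myeloid progenitor line that depends on interleukin-3, with p210 BCR/ABL, the oncoprotein of chronic myeloid leukemia, expressed in it. They were transduced with the MigRI retroviral vector, empty or carrying a fusion of C/EBPα to the ligand-binding domain of the estrogen receptor (ER), which becomes active when 4-hydroxytamoxifen (4-HT) is added. The fusion was wild type (WT), K298E, which the labels describe as unable to bind DNA, or Δ(177-191), which the labels describe as unable to interact with CDK2 and CDK4. RNA was taken at 0, 6, 9 and 12 h of 4-HT from each of the 4 lines, with 3 arrays in each of 16 groups, 48 arrays in all. BCR/ABL and 4-HT were shared by all lines, the empty-vector control included, and no sample analysed here was kept without 4-HT past 0 h. The labels give 1 line per construct, so a construct and its line cannot be told apart. They call the arrays triplicates in one place and separate experiments in another, so p-values measure the spread between these arrays, which may be technical.

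Glycolysis splits glucose into pyruvate, which lactate dehydrogenase can reduce to lactate, and its pace is set largely at glucose uptake, hexokinase and phosphofructokinase. When oxygen is low, prolyl hydroxylases stop marking the HIF-1α protein for destruction, and HIF then binds short DNA elements built around the letters ACGTG or GCGTG near genes of glucose uptake, glycolysis, angiogenesis, mitochondrial clearance and oxygen sensing. BCR/ABL signaling is known to raise glucose uptake and HIF-1α in myeloid cells, and the HIF-1α protein is controlled mostly after translation, so that the Hif1a transcript does not show its activity.

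The signals on the 48 arrays shared 1 scale, with a median signal between 11 and 19 and between 0.324% and 3.40% of probe sets at 0. The Gapdh control probe sets gave 3′ to 5′ ratios between 0.715 and 0.880, and no array repeated another. Esr1, whose probe set reports the receptor part of the fusions, had a mean signal at 0 h of 18.3 in vector cells, and of 2475, 1439 and 3263 in the WT, K298E and Δ(177-191) lines. Of the hematopoietic and progenitor markers, Ptprc, the pan-leukocyte antigen, and Spi1, the myeloid factor PU.1, were bright, with array signals of at least 1368 and 365, whereas Kit and Cd34 stayed at or below 28 and 16. The summed signal of the 8 hematopoietic markers lay between 3947 and 4698 in vector cells and between 5060 and 8843 in the fusion lines, and its part in the differences between lines was not tested. The summed erythroid, lymphoid and fibroblast markers stayed at or below 87, 61 and 60.

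The upstream sequences of 4 members are shown for the sequence letters that HIF is known to recognise: Egln3, Ankrd37 and Bnip3, which changed in several comparisons below, and Ldha, whose window holds the most copies and which passed in none. They are the 250 bases before an annotated start in RefSeq (build GRCm38.p6), 5′ to 3′ on the gene's strand, and the capitals mark ACGTG or its reverse complement CACGT. An E-box, the palindrome CACGTG, holds the element on each strand and counts as 2 overlapping matches. The 4 windows were chosen after the values were seen. Ldha has another window, not shown, which holds 0 matches to ACGTG.

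Egln3, chr12:54203875-54204124, minus strand: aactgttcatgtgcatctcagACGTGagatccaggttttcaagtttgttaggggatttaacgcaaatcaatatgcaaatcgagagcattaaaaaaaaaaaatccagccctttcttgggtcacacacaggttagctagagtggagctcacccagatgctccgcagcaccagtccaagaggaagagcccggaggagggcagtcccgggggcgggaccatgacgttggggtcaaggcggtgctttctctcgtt
Ankrd37, chr8:45999851-46000100, minus strand: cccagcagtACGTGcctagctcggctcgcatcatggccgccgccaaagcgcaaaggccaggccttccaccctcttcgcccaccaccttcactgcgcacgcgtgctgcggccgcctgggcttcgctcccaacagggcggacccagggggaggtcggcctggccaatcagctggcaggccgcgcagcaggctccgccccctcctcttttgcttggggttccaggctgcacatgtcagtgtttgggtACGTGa
Bnip3, chr7:138909507-138909756, minus strand: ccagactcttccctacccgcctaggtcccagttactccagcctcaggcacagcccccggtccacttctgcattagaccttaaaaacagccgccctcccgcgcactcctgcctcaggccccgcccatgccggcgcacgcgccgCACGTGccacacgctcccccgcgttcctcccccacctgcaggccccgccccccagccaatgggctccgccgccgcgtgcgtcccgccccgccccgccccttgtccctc
Ldha, chr7:46845554-46845803, plus strand: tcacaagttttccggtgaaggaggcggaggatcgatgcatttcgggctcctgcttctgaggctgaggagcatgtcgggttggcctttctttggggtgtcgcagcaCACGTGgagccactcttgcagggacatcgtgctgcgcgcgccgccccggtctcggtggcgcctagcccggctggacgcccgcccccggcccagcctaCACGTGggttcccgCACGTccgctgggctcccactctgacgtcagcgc

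The Egln3 window holds 1 match, the Ankrd37 window 2, the Bnip3 window 2 within 1 E-box, and the Ldha window 5, of which 4 lie in a pair of E-boxes. RefSeq windows were found for 33 of the 36 listed genes, 50 windows in all. ACGTG on either strand was present in 22 of these (44%), against 16.6% of all 32851 windows of the same length. By group it was present in 9 of 27 windows of glycolytic enzymes, 4 of 7 of transporters and flux regulators, and 8 of 15 of the other hypoxia targets. GCGTG, the other form of the element, was present in 54% of the members' windows and in 28.2% of all windows. Windows of 1 gene can overlap, and a match describes the letters only.

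The members differed widely in level. Several enzymes of glycolysis were among the brightest on the array, whose probe sets ranged from 0 to 18748. The mean signal over all 48 arrays was 5908 for the Pgk1 probe set (phosphoglycerate kinase), 5223 for Ldha (lactate dehydrogenase A) and 5086 for Aldoa (aldolase A). It was 4729 for Pkm (pyruvate kinase), 3255 for Tpi1 (triose phosphate isomerase) and 3064 for Pgam1 (phosphoglycerate mutase). The glucose transporter Slc2a3 reached 3042 and the oxidase Ero1l 2006, whereas Vegfa stood at 132, Ankrd37 at 65.2 and Pgf at 37.2. Aldoc and Slc16a3 were tested but dim, with array signals between 2 and 24 for Aldoc. Signals of different probe sets share no length scale, so these levels place each probe set in the measurable range and do not rank the genes. Of the 30 members tested, 23 passed the test in at least 1 of the 12 comparisons below. The same share over all genes tested was not counted, so this count is not read as a trait of the members. The 7 that passed in none were Aldoa, Pgk1, Pgam1, Pkm and Ldha, all bright, and Aldoc and Slc16a3, both dim. Tpi1, also bright, passed in several. Whether the brightness of a probe set limited its response was not tested.

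Each line was first compared with its own 0 h, as the mean of 6, 9 and 12 h minus 0 h on the scale log2(signal + 3), a scale that understates the change of dim genes. A member is said to rise or fall where its adjusted p in the limma fit was under 0.05. In vector cells, where 4-HT had no fusion to act on, 20 of the 30 members tested fell and 0 rose in the limma fit, also 0 at an unadjusted p under 0.05 (background over all genes tested: 13.5% lower, 10.5% higher); the median change was -0.42 for the members and -0.03 for all genes tested. In WT cells 14 fell and 5 rose (background 19.6% and 16.6%). In K298E cells 3 fell and 1 rose (background 3.54% and 2.84%). In Δ(177-191) cells 20 fell and 1 rose (background 21.2% and 14.4%). By this mean over the times, Bnip3, Ndrg1 and Pfkp fell in all 4 lines, and 13 members fell in vector, WT and Δ(177-191) cells alike. Of all genes tested, 1.83% fell in all 4 lines and 5.92% in those 3. At 12 h alone 0 members were lower in K298E cells, and Bnip3 was higher there. In bulk RNA such as this, fewer cells of a type and less RNA per cell cannot be told apart.

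Of the 20 members that fell in each line, 11 in vector cells and 10 in Δ(177-191) cells were hypoxia targets outside glycolysis, and the difference between groups of roles was not tested. In vector cells all 11 tested members of that group fell, with a median of -0.73, against 5 of 12 glycolytic enzymes (median -0.22) and 4 of 6 transporters and flux regulators (median -0.40). In Δ(177-191) cells the counts were 10 of 11 (median -0.90), 6 of 12 (median -0.15) and 4 of 6 (median -0.57). In WT cells 6 of 11 other hypoxia targets fell and 1 rose, 5 of 12 enzymes fell and 1 rose, and 3 of 6 transporters and flux regulators fell and 2 rose. With each array centred on its median, WT cells had 9 members lower and 6 higher, and the median of all probe sets shifted by 0.13 in WT and 0.10 in Δ(177-191) cells. Without replicate 2, Egln3 no longer rose in K298E cells, and without replicate 3 only 1 member fell there. 

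**Figure D1:**
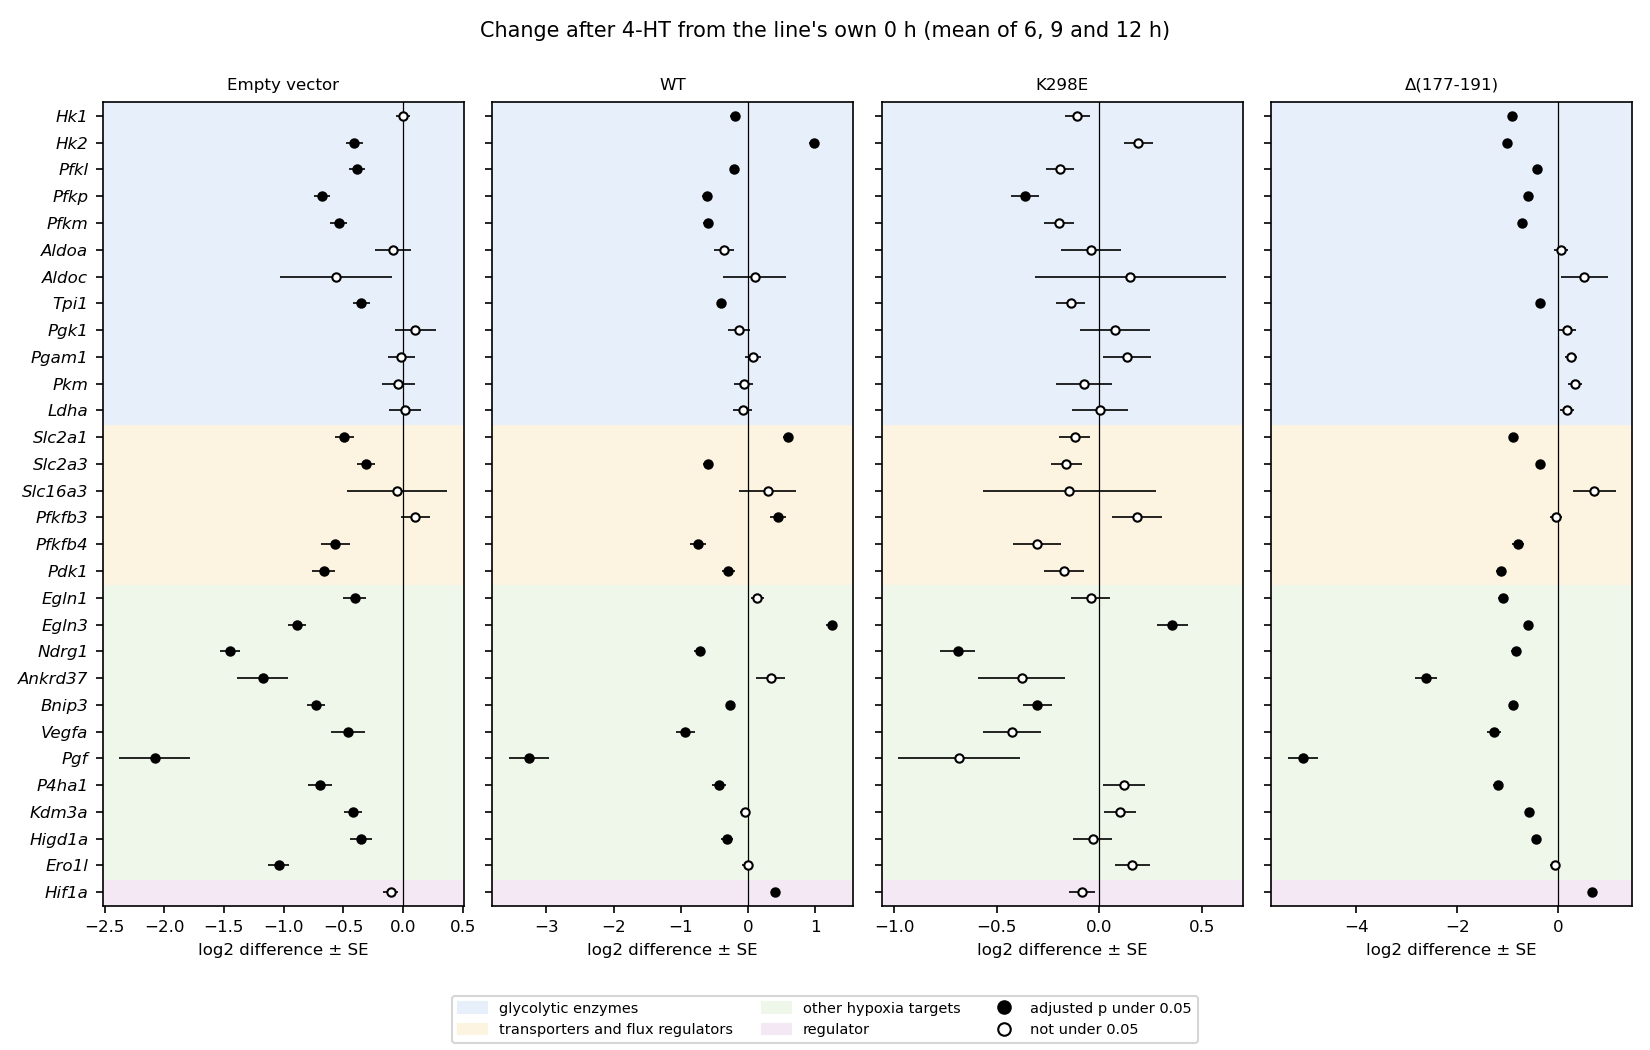
Change of each of the 30 tested members from the 0 h arrays of its own line (horizontal axis: log2 difference of the mean of 6, 9 and 12 h, with its standard error; the horizontal scales differ between panels), ordered by role and split by line. Filled points passed the limma test: 20 members lie left of 0 in vector cells and 20 in Δ(177-191) cells, against 3 in K298E cells, while Egln3 and Hk2 lie farthest right in WT cells.

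The regulator of the pathway, Hif1a, encodes the oxygen-regulated subunit of HIF-1. In vector cells its signals were 1099, 1257 and 1291 at 0 h, 1157, 1114 and 1072 at 6 h, 1022, 1217 and 1161 at 9 h, and 1236, 1103 and 1102 at 12 h. In WT cells the signals were 1133, 1152 and 1226 at 0 h, 1531, 1565 and 1640 at 6 h, 1641, 1372 and 1336 at 9 h, and 1784, 1539 and 1514 at 12 h. All 9 treated WT arrays lay above the 3 arrays at 0 h, and in vector cells no treated array did. In K298E cells Hif1a gave 1105, 1112 and 1126 at 0 h, 1200, 1064 and 1110 at 6 h, 952, 1047 and 1014 at 9 h, and 1009, 1032 and 1048 at 12 h. Hif1a in Δ(177-191) cells gave 1008, 1040 and 1015 at 0 h, 1717, 1666 and 1704 at 6 h, 1442, 1669 and 1587 at 9 h, and 1710, 1622 and 1648 at 12 h. All 9 treated Δ(177-191) arrays lay above 0 h, while 7 of 9 treated K298E arrays lay below it. Hif1a rose by 0.40 ± 0.06 in WT (SE; adjusted p = 1.9e-06) and by 0.68 ± 0.06 in Δ(177-191) cells (adjusted p = 5.55e-12), and its change was -0.10 in vector and -0.08 in K298E cells, which did not pass. The rise in WT cells exceeded that in K298E cells by 0.48 ± 0.09 (adjusted p = 9.75e-05). 

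Of the oxygen sensors, Egln3 encodes the prolyl hydroxylase PHD3, itself a HIF target that marks HIF-1α for destruction. In vector cells its signals were 1904, 2158 and 2094 at 0 h, 1014, 964 and 930 at 6 h, 822, 1015 and 1198 at 9 h, and 1323, 1368 and 1474 at 12 h. In WT cells they were 913, 949 and 1022 at 0 h, 2457, 2649 and 2646 at 6 h, 2191, 2051 and 1932 at 9 h, and 2275, 2221 and 2159 at 12 h. The lines moved in opposite directions: each treated vector array lay below 0 h, and each treated WT array lay above it. In K298E cells Egln3 gave 1352, 1365 and 1363 at 0 h, 1274, 1275 and 1233 at 6 h, 2151, 1723 and 1941 at 9 h, and 1936, 2432 and 2180 at 12 h. Egln3 in Δ(177-191) cells gave 2214, 2347 and 2186 at 0 h, 1055, 1066 and 889 at 6 h, 1620, 1653 and 1577 at 9 h, and 2074, 1930 and 2205 at 12 h. K298E arrays were just under 0 h at 6 h and above it at 9 and 12 h, and in Δ(177-191) cells 8 of 9 treated arrays lay below 0 h. Egln3 fell in vector cells (-0.89 ± 0.08, adjusted p = 3.01e-12) and in Δ(177-191) cells (-0.59 ± 0.08), and rose 2.36-fold in WT cells (1.24 ± 0.08, adjusted p = 2.69e-17). Egln1, which encodes the main oxygen sensor PHD2, fell in vector (-0.41 ± 0.10) and in Δ(177-191) cells (-1.09 ± 0.10), where its mean signal went from 747 at 0 h to 309 at 6 h. Its changes in WT (0.13) and K298E cells (-0.04) did not pass. Without replicate 2 the call on Egln1 in vector cells was lost.

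Ndrg1, a stress-response gene that rises strongly in hypoxia, was lower after 4-HT in all 4 lines over the mean of 6, 9 and 12 h. In vector cells its signals were 736, 739 and 775 at 0 h, 258, 264 and 224 at 6 h, 219, 255 and 306 at 9 h, and 325, 285 and 352 at 12 h. In WT cells the values were 322, 394 and 385 at 0 h, 404, 323 and 321 at 6 h, 166, 148 and 169 at 9 h, and 200, 176 and 201 at 12 h. Every treated vector array lay below 0 h, whereas WT arrays overlapped 0 h at 6 h and fell below it later. In K298E cells Ndrg1 measured 430, 478 and 455 at 0 h, 136, 132 and 163 at 6 h, 384, 284 and 334 at 9 h, and 455, 445 and 484 at 12 h. Ndrg1 in Δ(177-191) cells measured 1783, 1742 and 1723 at 0 h, 930, 895 and 909 at 6 h, 981, 924 and 918 at 9 h, and 1071, 1047 and 1124 at 12 h. K298E arrays dropped at 6 h and overlapped 0 h again at 12 h, and Δ(177-191) arrays, the brightest at 0 h, were all below 0 h. The change was -1.45 ± 0.08 in vector cells (adjusted p = 5.54e-17), -0.69 ± 0.08 in K298E, -0.72 ± 0.08 in WT and -0.84 ± 0.08 in Δ(177-191) cells.

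Ankrd37, a small ankyrin-repeat gene known as a HIF-1 target, changed over the widest range in Δ(177-191) cells after Pgf. In vector cells the signals of Ankrd37 were 116, 122 and 128 at 0 h, 35, 35 and 40 at 6 h, 44, 39 and 60 at 9 h, and 69, 96 and 85 at 12 h. In WT cells its signals were 31, 25 and 21 at 0 h, 35, 39 and 44 at 6 h, 18, 31 and 24 at 9 h, and 45, 38 and 31 at 12 h. Treated vector arrays all lay below 0 h, and in WT cells, which began low, 5 of 9 lay above 0 h and 1 below. In K298E cells Ankrd37 stood at 69, 62 and 52 at 0 h, 20, 6 and 29 at 6 h, 91, 61 and 51 at 9 h, and 87, 88 and 88 at 12 h. Ankrd37 in Δ(177-191) cells stood at 258, 252 and 278 at 0 h, 24, 29 and 23 at 6 h, 56, 45 and 29 at 9 h, and 65, 66 and 50 at 12 h. A single K298E array at 6 h gave 6, the lowest of all, and the Δ(177-191) arrays fell from the highest values of the series. The change was -2.62 ± 0.21 in Δ(177-191) cells (adjusted p = 1.43e-13) and -1.18 ± 0.21 in vector cells (adjusted p = 4.53e-05), and it did not pass in WT (0.34) or K298E cells (-0.38). 

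Bnip3 encodes a mitochondrial protein that drives removal of mitochondria in hypoxia. In vector cells Bnip3 signals were 1863, 1991 and 2114 at 0 h, 892, 978 and 804 at 6 h, 1093, 1298 and 1448 at 9 h, and 1614, 1437 and 1523 at 12 h. In WT cells Bnip3 gave 1114, 1141 and 1222 at 0 h, 1231, 1142 and 1111 at 6 h, 753, 773 and 809 at 9 h, and 1112, 927 and 956 at 12 h. Vector arrays were lowest at 6 h and lay below 0 h throughout, and WT arrays overlapped 0 h at 6 h and lay below it at 9 and 12 h. In K298E cells Bnip3 gave 1623, 1557 and 1630 at 0 h, 574, 561 and 601 at 6 h, 1907, 1599 and 1882 at 9 h, and 1961, 2241 and 2169 at 12 h. Bnip3 in Δ(177-191) cells gave 2621, 2455 and 2461 at 0 h, 831, 954 and 813 at 6 h, 1536, 1564 and 1531 at 9 h, and 1663, 1833 and 2025 at 12 h. The 3 K298E arrays at 6 h were the lowest Bnip3 values of the series and the 3 at 12 h lay above 0 h. Averaged over 6, 9 and 12 h Bnip3 changed by -0.73 ± 0.07 in vector and -0.90 ± 0.07 in Δ(177-191) cells, and by -0.26 ± 0.07 in WT and -0.30 ± 0.07 in K298E cells; the calls in WT and K298E cells were lost without replicate 2 and without replicate 3. Higd1a, which supports mitochondrial respiration in hypoxia, fell in vector (-0.35 ± 0.09), WT (-0.32 ± 0.09) and Δ(177-191) cells (-0.43 ± 0.09), from group means of 1961, 1734 and 1703 at 0 h. The call on Higd1a in vector cells was lost without replicate 2 and that in WT cells without replicate 3. Kdm3a, a histone demethylase induced by HIF, fell in vector (-0.42 ± 0.08) and Δ(177-191) cells (-0.59 ± 0.08), and its changes in WT (-0.05) and K298E cells (0.10) did not pass. 

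Ero1l (current symbol Ero1a), the endoplasmic reticulum oxidase that forms disulfide bonds, behaved differently in the vector line and the fusion lines. In vector cells Ero1l signals were 1981, 2321 and 2325 at 0 h, 1044, 989 and 907 at 6 h, 834, 1050 and 1203 at 9 h, and 1283, 1144 and 1255 at 12 h. In WT cells Ero1l gave 2261, 2521 and 2495 at 0 h, 3150, 2657 and 2730 at 6 h, 2302, 2034 and 1889 at 9 h, and 2510, 2267 and 2405 at 12 h. The vector signals dropped below 0 h on all 9 treated arrays, while WT arrays lay on both sides of 0 h. In K298E cells Ero1l gave 1452, 1410 and 1514 at 0 h, 1632, 1441 and 1453 at 6 h, 1762, 1615 and 1439 at 9 h, and 1814, 1964 and 1643 at 12 h. Ero1l in Δ(177-191) cells gave 2813, 2608 and 2728 at 0 h, 2761, 2652 and 2723 at 6 h, 2197, 2600 and 2483 at 9 h, and 2780, 2284 and 2966 at 12 h. No treated K298E array lay below 0 h, and 4 of 9 treated Δ(177-191) arrays did. Ero1l changed by -1.04 ± 0.09 in vector cells (2.06-fold, adjusted p = 9.61e-13) and did not pass in WT (-0.01), K298E (0.16) or Δ(177-191) cells (-0.07). Relative to vector cells its change was higher in WT (1.04 ± 0.12, adjusted p = 1.59e-08), in K298E (1.20 ± 0.12, adjusted p = 1.39e-09) and in Δ(177-191) cells (0.98 ± 0.12, adjusted p = 1.91e-08). 

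P4ha1 encodes the catalytic subunit of collagen prolyl 4-hydroxylase. In vector cells P4ha1 signals were 212, 218 and 181 at 0 h, 122, 84 and 126 at 6 h, 124, 125 and 150 at 9 h, and 133, 126 and 140 at 12 h. In WT cells P4ha1 gave 142, 148 and 134 at 0 h, 137, 131 and 150 at 6 h, 91, 79 and 105 at 9 h, and 82, 96 and 90 at 12 h. Each treated vector array was below 0 h, and in WT cells those at 9 and 12 h were. In K298E cells P4ha1 gave 146, 119 and 140 at 0 h, 90, 102 and 94 at 6 h, 215, 157 and 183 at 9 h, and 166, 184 and 189 at 12 h. P4ha1 in Δ(177-191) cells gave 217, 255 and 253 at 0 h, 66, 79 and 72 at 6 h, 121, 123 and 110 at 9 h, and 148, 129 and 117 at 12 h. K298E arrays were below 0 h at 6 h and above it at 9 and 12 h, with no overlap at any time. P4ha1 changed by -0.69 ± 0.10 in vector, -0.43 ± 0.10 in WT and -1.19 ± 0.10 in Δ(177-191) cells, and its change of 0.12 in K298E cells did not pass. 

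The list holds a pair of angiogenic ligands. Vegfa, the main growth factor for blood vessels, gave in vector cells 232, 204 and 211 at 0 h, 163, 191 and 156 at 6 h, 159, 134 and 151 at 9 h, and 142, 176 and 137 at 12 h. In WT cells Vegfa gave 202, 205 and 202 at 0 h, 133, 145 and 119 at 6 h, 84, 93 and 105 at 9 h, and 88, 98 and 94 at 12 h. All treated arrays of both lines lay below 0 h. In K298E cells Vegfa gave 162, 179 and 195 at 0 h, 95, 166 and 112 at 6 h, 119, 132 and 120 at 9 h, and 137, 156 and 171 at 12 h. Vegfa in Δ(177-191) cells gave 135, 169 and 135 at 0 h, 75, 72 and 36 at 6 h, 61, 47 and 40 at 9 h, and 79, 72 and 61 at 12 h. Treated Δ(177-191) arrays all lay below 0 h and 7 of 9 treated K298E arrays did. Vegfa changed by -1.27 ± 0.14 in Δ(177-191) (adjusted p = 6.89e-10), -0.93 ± 0.14 in WT (adjusted p = 7.76e-07) and -0.46 ± 0.14 in vector cells, a call that was lost without replicate 1 and without replicate 3, and its change of -0.42 in K298E cells did not pass. 

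Pgf encodes placental growth factor, a ligand of the VEGF receptor FLT1. In vector cells Pgf gave 64, 70 and 69 at 0 h, 34, 17 and 16 at 6 h, 27, 16 and 12 at 9 h, and 4, 3 and 17 at 12 h. In WT cells Pgf gave 67, 42 and 73 at 0 h, 7, 4 and 5 at 6 h, 4, 2 and 5 at 9 h, and 2, 2 and 2 at 12 h. Vector signals were lowest at 12 h, and WT signals were at or below 7 from 6 h on. In K298E cells Pgf gave 65, 48 and 72 at 0 h, 28, 21 and 11 at 6 h, 44, 58 and 71 at 9 h, and 41, 50 and 45 at 12 h. Pgf in Δ(177-191) cells gave 223, 202 and 208 at 0 h, 4, 2 and 4 at 6 h, 9, 2 and 2 at 9 h, and 3, 2 and 5 at 12 h. The Δ(177-191) line began highest and its treated arrays gave 9 or less, near the bottom of the scale, while 3 of 9 treated K298E arrays overlapped 0 h. On the log2(signal + 3) scale the change was -5.07 ± 0.30 in Δ(177-191), -3.26 ± 0.30 in WT and -2.08 ± 0.30 in vector cells, and the change of -0.68 in K298E cells did not pass. Since treated WT and Δ(177-191) arrays lie near the bottom of the scale, the size of their fall is set by the 0 h level and by the 3 added before the logarithm.

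**Figure D2:**
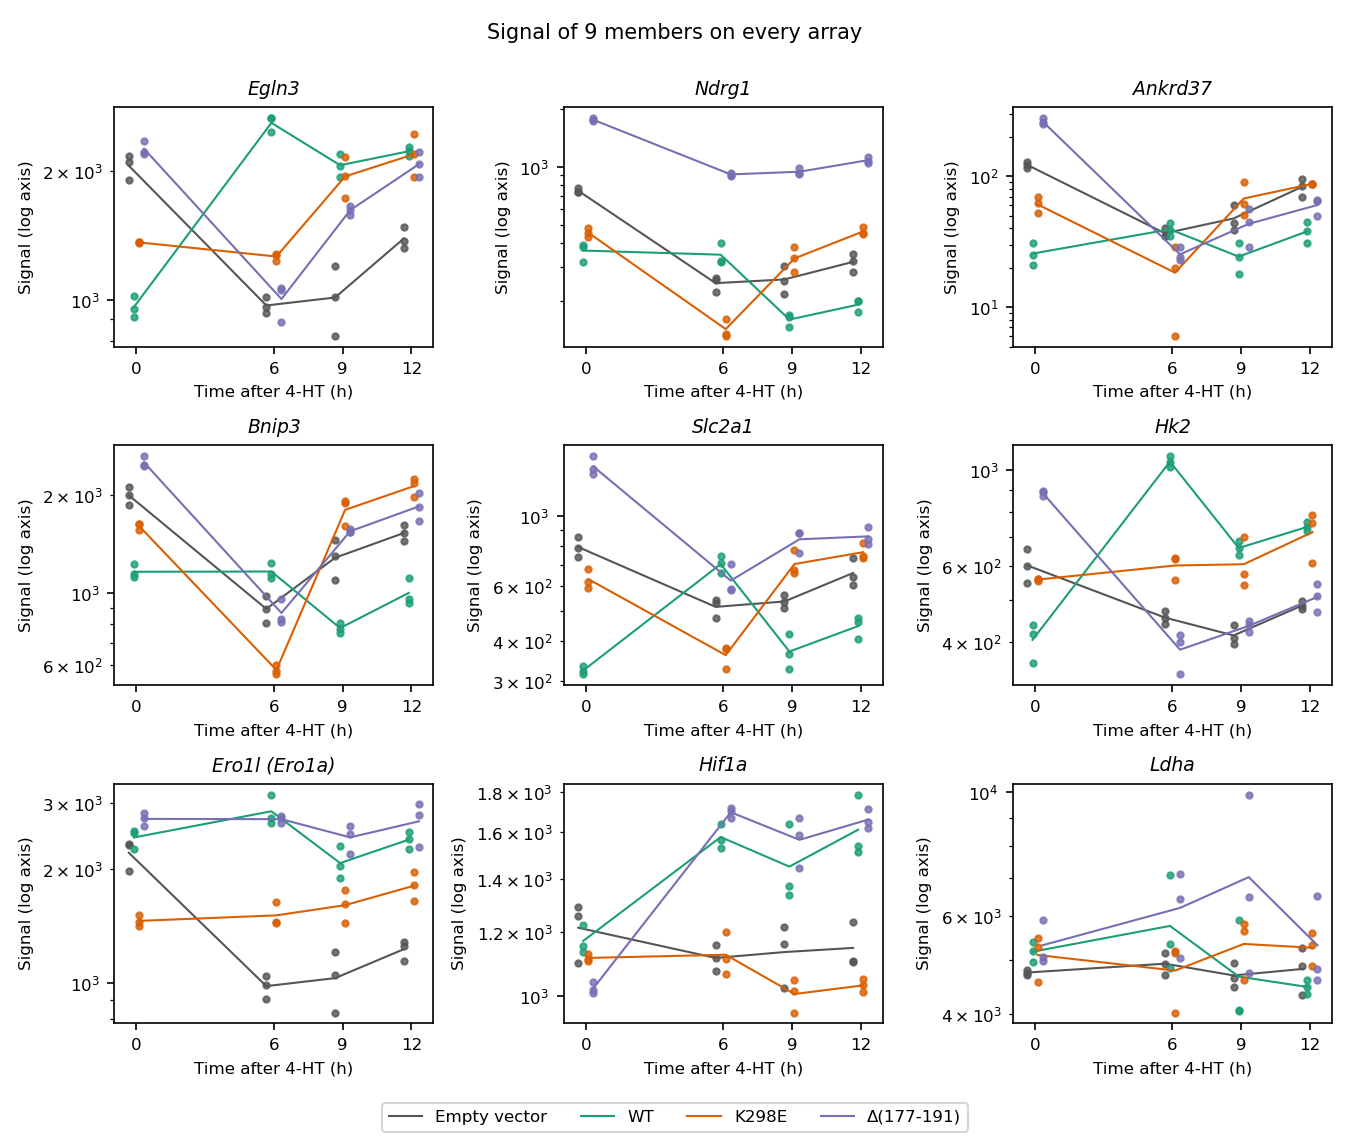
Deposited signal (vertical log axis, arbitrary units) of 9 members against time after 4-HT (horizontal axis, h): points are single arrays, 3 per line and time, shifted sideways for sight, and lines join group means. Egln3, Hk2 and Slc2a1 climb in WT cells at 6 h, K298E cells dip at 6 h in Bnip3 and Ndrg1 and return by 12 h, Ero1l drops in vector cells, and Ldha stays between 4021 and 9896.

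Among the transporters and flux regulators, Slc2a1 encodes GLUT1, the basal glucose transporter. In vector cells Slc2a1 gave 791, 855 and 741 at 0 h, 540, 527 and 475 at 6 h, 511, 534 and 559 at 9 h, and 639, 603 and 733 at 12 h. In WT cells Slc2a1 gave 314, 334 and 321 at 0 h, 659, 706 and 743 at 6 h, 421, 327 and 365 at 9 h, and 473, 407 and 460 at 12 h. All treated vector arrays lay below 0 h, and 8 of 9 treated WT arrays lay above it, with the peak at 6 h. In K298E cells Slc2a1 gave 592, 617 and 680 at 0 h, 377, 326 and 381 at 6 h, 777, 671 and 660 at 9 h, and 734, 745 and 820 at 12 h. Slc2a1 in Δ(177-191) cells gave 1542, 1354 and 1402 at 0 h, 580, 585 and 703 at 6 h, 764, 883 and 879 at 9 h, and 845, 811 and 924 at 12 h. K298E arrays were below 0 h at 6 h and above it at 12 h, and Δ(177-191) arrays, highest at 0 h, were all below. Slc2a1 rose by 0.59 ± 0.08 in WT cells (adjusted p = 2.41e-08) and fell in vector (-0.49 ± 0.08, adjusted p = 2.69e-06) and Δ(177-191) cells (-0.90 ± 0.08, adjusted p = 3.35e-13), while its mean change in K298E cells was -0.12. 

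Slc2a3 encodes GLUT3, a glucose transporter of high affinity. In vector cells Slc2a3 gave 3304, 3360 and 3581 at 0 h, 3115, 2786 and 2658 at 6 h, 2414, 2670 and 2806 at 9 h, and 2673, 2719 and 3004 at 12 h. In WT cells Slc2a3 gave 3477, 4088 and 3883 at 0 h, 3046, 3127 and 2998 at 6 h, 2325, 2282 and 2042 at 9 h, and 2587, 2160 and 2296 at 12 h. Each treated array of both lines lay below 0 h. In K298E cells Slc2a3 gave 3284, 2989 and 3428 at 0 h, 2604, 2234 and 2424 at 6 h, 3109, 2763 and 3116 at 9 h, and 3391, 3257 and 3352 at 12 h. Slc2a3 in Δ(177-191) cells gave 4366, 3803 and 3787 at 0 h, 4346, 3506 and 4452 at 6 h, 2614, 2767 and 2645 at 9 h, and 2661, 2626 and 3078 at 12 h. Slc2a3 overlapped 0 h in Δ(177-191) cells at 6 h and lay below it at 9 and 12 h, and in K298E cells it lay below 0 h at 6 h. The change was -0.60 ± 0.08 in WT, -0.35 ± 0.08 in Δ(177-191) and -0.31 ± 0.08 in vector cells, the last lost without replicate 3. In WT cells the 2 glucose transporters were called in opposite directions.

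Pfkfb3 and Pfkfb4 encode the bifunctional enzymes that make and break fructose 2,6-bisphosphate, the activator of phosphofructokinase. In vector cells Pfkfb3 gave 135, 143 and 123 at 0 h, 157, 178 and 163 at 6 h, 136, 153 and 114 at 9 h, and 133, 126 and 141 at 12 h. In WT cells Pfkfb3 gave 113, 142 and 155 at 0 h, 198, 226 and 238 at 6 h, 170, 176 and 167 at 9 h, and 154, 176 and 180 at 12 h. Pfkfb3 lay above 0 h on all arrays at 6 h in both lines. In K298E cells Pfkfb3 gave 144, 142 and 112 at 0 h, 197, 189 and 185 at 6 h, 135, 152 and 107 at 9 h, and 135, 140 and 134 at 12 h. Pfkfb3 in Δ(177-191) cells gave 69, 103 and 81 at 0 h, 137, 145 and 141 at 6 h, 57, 81 and 70 at 9 h, and 58, 71 and 39 at 12 h. The 6 h arrays were again above 0 h in both lines, and of the 12 later arrays only 1, a K298E array at 9 h, was. Over the mean of the 3 times Pfkfb3 rose in WT cells (0.44 ± 0.12, adjusted p = 0.00362), a call lost without replicate 1, and it passed in no other line. 

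Pfkfb4 moved the other way. In vector cells Pfkfb4 gave 128, 116 and 109 at 0 h, 61, 62 and 46 at 6 h, 91, 81 and 97 at 9 h, and 94, 89 and 105 at 12 h. In WT cells Pfkfb4 gave 134, 121 and 129 at 0 h, 60, 66 and 57 at 6 h, 83, 80 and 91 at 9 h, and 86, 79 and 80 at 12 h. All treated arrays of both lines were below 0 h, lowest at 6 h. In K298E cells Pfkfb4 gave 96, 88 and 109 at 0 h, 60, 68 and 56 at 6 h, 81, 95 and 72 at 9 h, and 99, 94 and 93 at 12 h. Pfkfb4 in Δ(177-191) cells gave 80, 74 and 80 at 0 h, 50, 40 and 37 at 6 h, 27, 45 and 50 at 9 h, and 48, 54 and 48 at 12 h. The 6 h arrays were below 0 h in both lines as well. Pfkfb4 fell in vector (-0.57 ± 0.12), WT (-0.75 ± 0.12) and Δ(177-191) cells (-0.80 ± 0.12), and its change of -0.30 in K298E cells did not pass. Pdk1, the kinase that keeps pyruvate out of the mitochondrial cycle, fell in vector (-0.66 ± 0.10), WT (-0.30 ± 0.10) and Δ(177-191) cells (-1.13 ± 0.10), the call in WT cells being lost without replicate 2 and without replicate 3; its group means in Δ(177-191) cells were 925, 442, 345 and 494. Slc16a3, the lactate exporter MCT4, passed in no line.

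Among the enzymes, the calls in the 12 comparisons were on hexokinases, phosphofructokinases and triose phosphate isomerase. Hk2 encodes the inducible hexokinase, which traps glucose in the cell. In vector cells Hk2 gave 656, 600 and 547 at 0 h, 472, 454 and 439 at 6 h, 395, 408 and 438 at 9 h, and 497, 477 and 483 at 12 h. In WT cells Hk2 gave 417, 438 and 357 at 0 h, 1045, 1019 and 1076 at 6 h, 659, 684 and 636 at 9 h, and 737, 721 and 758 at 12 h. All 9 treated arrays lay below 0 h in vector cells and above it in WT cells. In K298E cells Hk2 gave 552, 560 and 560 at 0 h, 557, 625 and 621 at 6 h, 698, 542 and 575 at 9 h, and 788, 610 and 756 at 12 h. Hk2 in Δ(177-191) cells gave 895, 873 and 889 at 0 h, 400, 414 and 336 at 6 h, 438, 421 and 447 at 9 h, and 545, 469 and 511 at 12 h. Each treated Δ(177-191) array lay below 0 h, and 7 of 9 treated K298E arrays lay above it. Hk2 rose by 0.98 ± 0.07 in WT cells (1.98-fold, adjusted p = 5.12e-15), changed by -0.41 ± 0.07 in vector (adjusted p = 2.26e-05) and -1.01 ± 0.07 in Δ(177-191) cells (adjusted p = 2e-15), and did not pass in K298E cells (0.19). 

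Hk1 encodes the housekeeping hexokinase. In vector cells Hk1 gave 1407, 1414 and 1406 at 0 h, 1289, 1340 and 1281 at 6 h, 1351, 1526 and 1578 at 9 h, and 1419, 1549 and 1384 at 12 h. In WT cells Hk1 gave 1273, 1209 and 1346 at 0 h, 1040, 996 and 984 at 6 h, 1120, 1176 and 1113 at 9 h, and 1284, 1146 and 1152 at 12 h. Vector arrays fell on both sides of 0 h, and WT arrays lay below it but for 1 at 12 h. In K298E cells Hk1 gave 1350, 1404 and 1246 at 0 h, 1038, 1069 and 1049 at 6 h, 1242, 1202 and 1366 at 9 h, and 1426, 1444 and 1383 at 12 h. Hk1 in Δ(177-191) cells gave 1277, 1343 and 1424 at 0 h, 645, 662 and 704 at 6 h, 614, 699 and 788 at 9 h, and 713, 849 and 785 at 12 h. All treated Δ(177-191) arrays were well under 0 h, with no overlap. Hk1 changed by -0.91 ± 0.06 in Δ(177-191) cells (adjusted p = 6.13e-16) against 0.00 in vector cells, and its fall of -0.20 ± 0.06 in WT cells was lost without replicate 2 and without replicate 3. 

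Pfkp encodes the platelet-type phosphofructokinase. In vector cells Pfkp gave 1393, 1267 and 1310 at 0 h, 776, 769 and 733 at 6 h, 744, 857 and 819 at 9 h, and 949, 835 and 972 at 12 h. In WT cells Pfkp gave 1256, 1348 and 1352 at 0 h, 1059, 986 and 1025 at 6 h, 807, 767 and 877 at 9 h, and 765, 734 and 769 at 12 h. Every treated array in both lines was below 0 h, and WT arrays were lowest at 12 h. In K298E cells Pfkp gave 986, 954 and 1111 at 0 h, 615, 623 and 651 at 6 h, 1028, 776 and 849 at 9 h, and 787, 900 and 995 at 12 h. Pfkp in Δ(177-191) cells gave 1640, 1560 and 1526 at 0 h, 949, 871 and 890 at 6 h, 1088, 1013 and 1017 at 9 h, and 1244, 1123 and 1204 at 12 h. Treated Δ(177-191) arrays were all below 0 h, and 7 of 9 K298E arrays were. The change was -0.68 ± 0.07 in vector cells, -0.62 ± 0.07 in WT, -0.36 ± 0.07 in K298E, where the call was lost without replicate 3, and -0.60 ± 0.07 in Δ(177-191) cells. The other phosphofructokinases, Pfkl (liver type) and Pfkm (muscle type), and Tpi1, triose phosphate isomerase, fell in vector, WT and Δ(177-191) cells, by -0.60 ± 0.07 for Pfkm, -0.40 ± 0.07 for Tpi1 and -0.21 ± 0.07 for Pfkl in WT cells, the last lost without replicate 1 and without replicate 2. 

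Ldha is the HIF target most often measured as a sign of glycolysis. In vector cells Ldha gave 4695, 4798 and 4741 at 0 h, 5135, 4923 and 4706 at 6 h, 4474, 4648 and 4942 at 9 h, and 4879, 4323 and 5244 at 12 h. In WT cells Ldha gave 4949, 5188 and 5376 at 0 h, 7089, 4829 and 5339 at 6 h, 5883, 4047 and 4067 at 9 h, and 4603, 4333 and 4475 at 12 h. Treated arrays lay on both sides of 0 h in both lines. In K298E cells Ldha gave 5269, 4560 and 5475 at 0 h, 5177, 4021 and 5151 at 6 h, 5802, 4594 and 5622 at 9 h, and 4881, 5575 and 5312 at 12 h. Ldha in Δ(177-191) cells gave 5888, 5067 and 4978 at 0 h, 6419, 5047 and 7126 at 6 h, 9896, 6469 and 4745 at 9 h, and 4807, 4602 and 6520 at 12 h. Here too the groups overlapped, and single arrays were as far apart as 9896 and 4745 in Δ(177-191) cells at 9 h. The Ldha differences from 0 h were 0.02 ± 0.14 in vector cells, -0.08 ± 0.14 in the WT line, 0.18 ± 0.14 with Δ(177-191) and 0.00 ± 0.14 with K298E, none of which passed; after quantile normalization the change in vector cells was -0.13 (adjusted p = 0.0194). The other bright enzymes that passed in none of the 12 comparisons had changes between -0.36 (Aldoa in WT) and 0.33 (Pkm in Δ(177-191) cells). At single times Aldoa fell in WT cells at 12 h (-0.52 ± 0.18), Pgam1 rose in Δ(177-191) cells at 6 h (0.37 ± 0.14) and Pkm rose there at 9 h (0.45 ± 0.17). 

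Gapdh, read by the control probe set nearest the 3′ end, was likewise bright. In vector cells Gapdh gave 5281, 5062 and 5152 at 0 h, 6408, 5864 and 5566 at 6 h, 5488, 5046 and 5847 at 9 h, and 5246, 4868 and 5726 at 12 h. In WT cells Gapdh gave 6226, 6659 and 6762 at 0 h, 9524, 5601 and 6561 at 6 h, 8338, 4432 and 5162 at 9 h, and 5257, 5272 and 5368 at 12 h. The vector arrays lay between 4868 and 6408, and 1 WT array at 6 h stood out at 9524. In K298E cells Gapdh gave 5736, 4765 and 6205 at 0 h, 6345, 4506 and 6291 at 6 h, 6469, 4861 and 6858 at 9 h, and 5438, 6125 and 5699 at 12 h. Gapdh in Δ(177-191) cells gave 6433, 5385 and 4840 at 0 h, 7916, 5225 and 9479 at 6 h, 12416, 7414 and 5117 at 9 h, and 5025, 4759 and 7033 at 12 h. The Δ(177-191) arrays ranged from 4759 to 12416. The 3 arrays with the highest Gapdh signals, 1 of WT cells at 6 h and 1 each of Δ(177-191) cells at 6 and 9 h, were also the 3 with the highest Ldha signals (7089, 7126 and 9896), and the part of this in the enzymes' spread was not tested.

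The time courses differed between the lines. At 6 h, 19 members were lower in vector cells (background 12%), 16 in K298E cells (background 7.04%) and 19 in Δ(177-191) cells (background 18.3%), against 8 in WT cells (background 19%), where 5 were higher (background 13.5%). By 12 h the members lower numbered 15 in vector (background 9.76%), 0 in K298E (1 at an unadjusted p under 0.05 in limma; background 1.31%), 17 in Δ(177-191) (background 18.3%) and 12 in WT cells (background 16.2%), and 4 were higher in K298E cells (background 1.03%): Bnip3, Egln3, Hk2 and Kdm3a. WT cells also had 4 members higher at 12 h, Egln3, Hif1a, Hk2 and Slc2a1 (all genes tested: 1885 of 12764). Δ(177-191) cells had 1, Hif1a (1555 of 12764), and vector cells 0 (982 of 12764). At 6 h 3 members were higher in Δ(177-191) cells (1563 of 12764), 1 in K298E (696 of 12764) and 0 in vector cells (1073 of 12764). The median of the other hypoxia targets in K298E cells went from -0.49 at 6 h to 0.13 at 9 h and 0.31 at 12 h, and in vector cells from -1.08 to -0.64 and -0.55. Without replicate 3, 10 members were lower at 6 h in K298E cells and 1 was higher at 12 h, and without replicate 2 there were 2 higher; with any 1 replicate left out, 7 or 8 were lower at 12 h in vector cells.

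The change from 6 h to 12 h was then tested within lines, contrasts added after the values were seen. In K298E cells 18 of the 30 members were higher at 12 h than at 6 h (background 5.73%), in vector cells 11 (background 5.03%), in Δ(177-191) cells 12 (background 9.73%) and in WT cells 2 (background 8.77%), where 6 were lower (background 6.52%). In vector cells 1 member was lower, Pgf (all genes tested: 520 of 12764), and in K298E cells 1, Pfkfb3 (631 of 12764). In Δ(177-191) cells 2 were lower, Pfkfb3 and Slc2a3 (1104 of 12764). The count of members higher in vector cells was 7, 5 and 4 without replicate 1, 2 and 3. Bnip3 rose over this span by 1.87 ± 0.09 in K298E cells (adjusted p = 3.48e-19) and by 0.78 ± 0.09 in vector cells (adjusted p = 3.45e-08), whereas in WT cells its change was -0.22. In WT cells Hk2 changed from its peak by -0.50 ± 0.09, Slc2a1 by -0.65 ± 0.09 and Ndrg1 by -0.85 ± 0.10. The change from 6 h to 12 h differed between K298E and vector cells for 5 members, all higher in K298E cells (background 0.689%). They were Bnip3 (1.09 ± 0.13, adjusted p = 3.57e-07), Ndrg1 (1.31 ± 0.15, adjusted p = 1.71e-07), Slc2a1 (0.73), Pfkl (0.51) and Pgf (2.50). Pgf fell over this span in vector cells (-1.36 ± 0.36), where its 12 h arrays gave 4, 3 and 17, near the bottom of the scale. The count of 5 was 3 without replicate 1 and 2 without replicate 2.

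**Figure D3:**
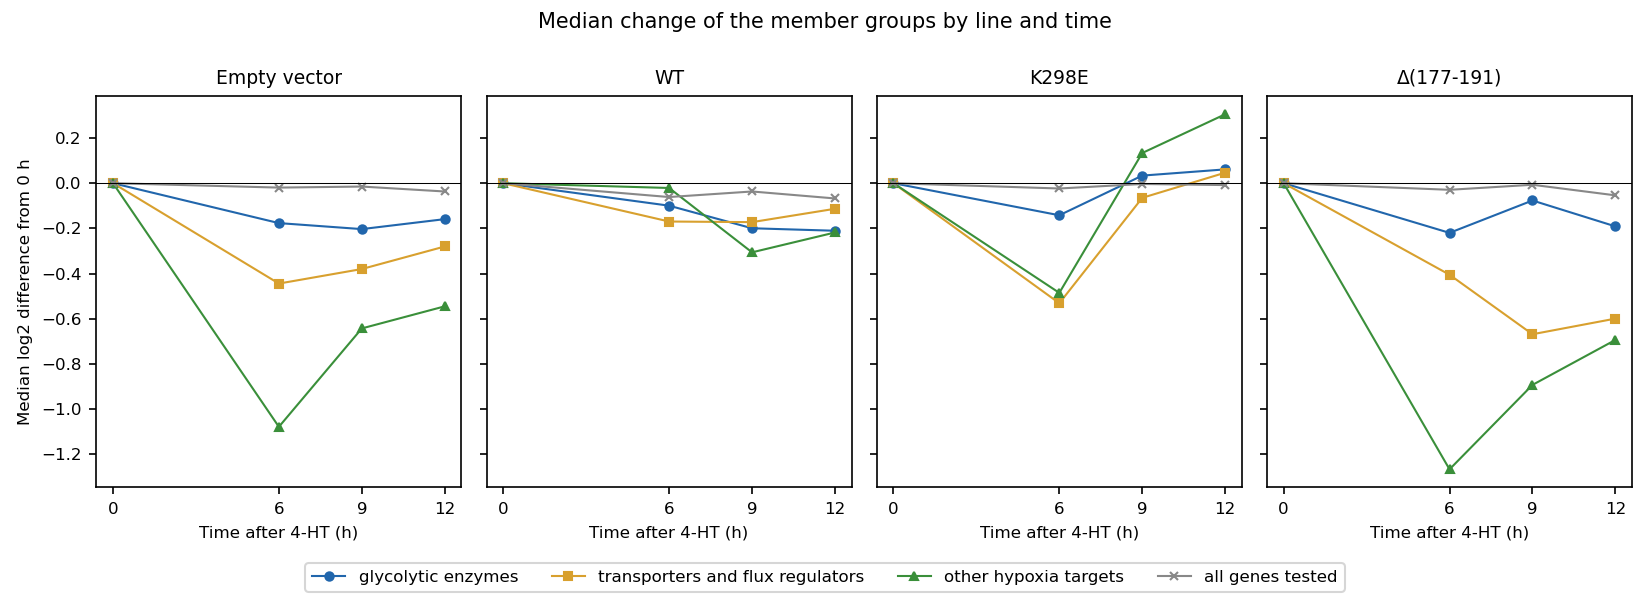
Median log2 difference from 0 h (vertical axis) at 6, 9 and 12 h of 4-HT (horizontal axis, h) over the tested glycolytic enzymes, transporters and flux regulators, other hypoxia targets and all genes tested, by line. The other hypoxia targets lie lowest at 6 h in vector (-1.08) and Δ(177-191) cells (-1.27), cross above 0 after 6 h in K298E cells, and stay between -0.31 and 0 in WT cells.

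Before 4-HT the lines already differed. By limma WT cells had 11 members lower and 0 higher than vector cells at 0 h (background 2.82% and 2.92%), K298E cells 9 lower and 0 higher, with 0 higher in either line at an unadjusted p under 0.05 (background 3.46% and 3.02%), and Δ(177-191) cells 10 higher and 5 lower (background 13.3% and 15.3%). The other hypoxia targets held most of the low starts, 7 of 11 in WT (median -0.73) and 7 of 11 in K298E cells (median -0.50), while 2 of 12 and 1 of 12 glycolytic enzymes were low. In WT cells Ankrd37 (-2.14 ± 0.26, adjusted p = 1.29e-07), Slc2a1 (-1.29 ± 0.09, adjusted p = 4e-14) and Egln3 (-1.09 ± 0.09, adjusted p = 9.18e-12) started lowest. In K298E cells these were Ankrd37 (-0.97), Ndrg1 (-0.72) and Ero1l (-0.59). In Δ(177-191) cells Pgf (1.60 ± 0.36), Ndrg1 (1.22 ± 0.10) and Ankrd37 (1.09 ± 0.26) started highest, and Pfkfb3 (-0.66 ± 0.15), Pfkfb4 (-0.57) and Vegfa (-0.56) lowest among the members that passed. Both comparisons of WT and K298E use the same 3 vector arrays. Without replicate 2 the K298E count fell from 9 to 2, and with any 1 replicate left out the count lower in Δ(177-191) cells was 3.

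**Figure D4:**
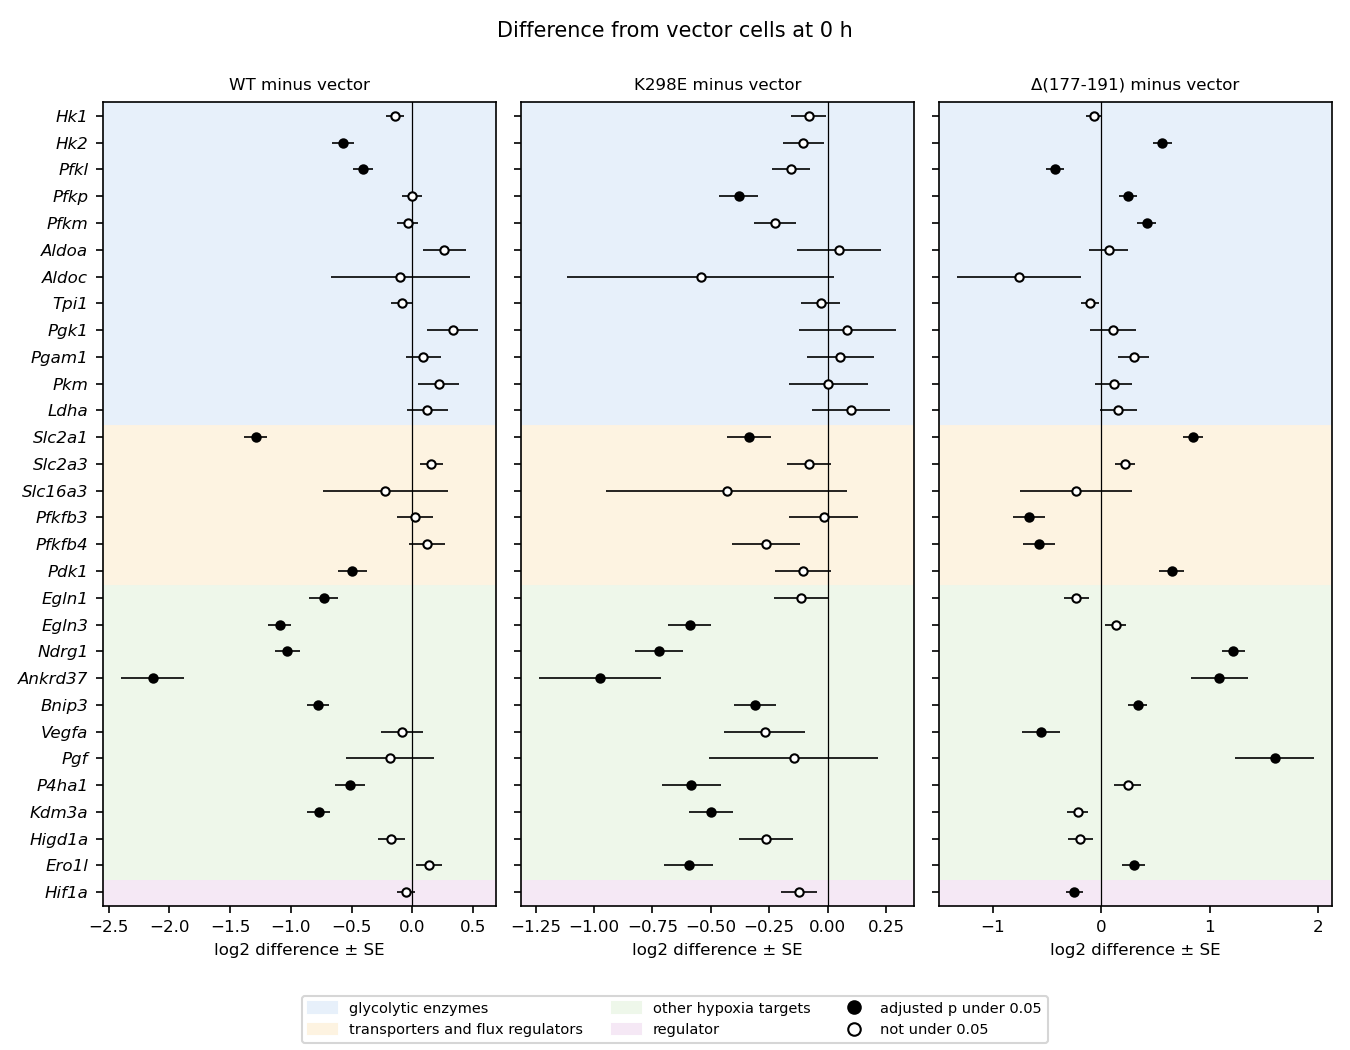
Log2 difference from vector cells at 0 h with its standard error (horizontal axis, scales differ between panels) for the 30 tested members in WT, K298E and Δ(177-191) cells. Filled points passed the limma test; the filled points lie left of 0 in WT and K298E cells (11 and 9) and on both sides in Δ(177-191) cells (10 right, 5 left).

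Measured against the change in vector cells, which holds 4-HT without a fusion, limma called 10 members higher in WT and 0 lower, or 4 lower at an unadjusted p under 0.05 (background 5.08% and 4.5%), 12 were higher in K298E and 0 lower, also 0 unadjusted (background 3.85% and 2.23%), and 4 were higher and 9 lower in Δ(177-191) cells (background 11.2% and 14.4%). All 3 comparisons share the vector arrays. They also rest on the 0 h arrays whose differences are given above. Of the members called higher against the vector change, 8 in WT and 8 in K298E cells were called lower at 0 h. In Δ(177-191) cells 5 of those called lower were called higher at 0 h. The 0 h arrays enter both kinds of comparison with opposite sign, and this overlap was not counted over all genes. At single times, counts taken after the values were seen, the members higher in WT cells numbered 12 at 6 h, 6 at 9 h and 5 at 12 h (background 3.27%, 3.26% and 3.82%), of which 7, 3 and 2 were other hypoxia targets. In K298E cells they numbered 3, 12 and 10 (background 1.19%, 3.22% and 3.38%), and the count at 12 h was 6 without replicate 2. Egln3 was highest in WT cells (2.13 ± 0.11, adjusted p = 9.48e-19), followed by Ankrd37 (1.51 ± 0.30) and Hk2 (1.39 ± 0.10). In K298E cells the highest were Pgf (1.40 ± 0.42, lost with any 1 replicate left out), Egln3 (1.25 ± 0.11, adjusted p = 3.64e-11) and Ero1l. At 12 h the mean signal of Egln3 was 2218 ± 58 in WT, 2183 ± 248 in K298E, 2070 ± 138 in Δ(177-191) and 1388 ± 77.5 in vector cells (SD, n = 3). In Δ(177-191) cells Pgf (-2.99), Ankrd37 (-1.45 ± 0.30) and Hk1 (-0.91 ± 0.09) were lowest, and Hif1a was higher (0.78 ± 0.09, adjusted p = 2.88e-09). By role, 7 of 11 other hypoxia targets were higher in WT and 7 of 11 in K298E cells (medians 0.47 and 0.75), against 1 of 12 and 3 of 12 enzymes (medians -0.04, which was 0.14 after quantile normalization, and 0.17). The count of 12 in K298E cells was 7, 4 and 5 without replicate 1, 2 and 3, and 6 with each array centred on its median.

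The difference between WT and the mutant fusions was tested directly. Against K298E, 4 members changed more upward in WT (background 8.46%) and 4 more downward (background 9.1%). Egln3 (0.88 ± 0.11, adjusted p = 4.03e-08), Hk2 (0.79 ± 0.10, adjusted p = 1.03e-07), Slc2a1 (0.71 ± 0.11, adjusted p = 3.28e-06) and Hif1a were the former. Pgf (-2.58 ± 0.42), P4ha1 (-0.55 ± 0.14), Slc2a3 (-0.44 ± 0.11) and Pfkm (-0.40 ± 0.10) were the latter; without replicate 2 and without replicate 3 there were 2. For Pgf the treated WT arrays lay between 2 and 7, near the bottom of the scale. Against Δ(177-191), 12 members changed more upward in WT (background 14.3%), 7 of them among the 11 other hypoxia targets, and 1 more downward (background 11.1%). The largest were Ankrd37 (2.96 ± 0.30, adjusted p = 2.71e-10), Hk2 (1.99 ± 0.10, adjusted p = 1.09e-18) and Egln3 (1.83 ± 0.11, adjusted p = 6.88e-17). The 1 more downward was Hif1a (-0.28 ± 0.09, adjusted p = 0.0181), a call lost without replicate 2, without replicate 3 and with all its probe sets averaged. Pgf differed by 1.80 ± 0.42, but the treated arrays of both lines lay between 2 and 9. The call on Pfkfb3 (0.48 ± 0.17) was lost with any 1 replicate left out.

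For 18 members another probe set was tested as well, 35 in all, which gives 420 pairs over the 12 comparisons. In 158 pairs both probe sets were called in the same direction, in 207 neither was called, in 32 the chosen one alone and in 23 the other one alone, and in 0 pairs were they called in opposite directions.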

How the data were processed

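Total RNA of 48 samples was hybridised to Affymetrix MOE430_2 arrays, per the labels. The authors deposited 1 signal intensity per probe set and array, linear and in whole numbers, made with MAS5 per the submitters' processing notes, with the version and any further step not given in the sources used here. Of 45101 probe sets 64 controls were left out. The platform annotation gives 1 gene symbol for 34945 of the other 45037, several for 932 and none for 9160, and symbols were updated with a RefSeq gene table (GRCm38.p6). A gene stood for its probe set of highest mean signal.

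Signals were analysed as log2(signal + 3). Probe sets with at least 1 group mean above 4.09, the median of all log2 values, entered the test, 27167 in all. limma 3.58.1 in R 4.3.3 (lmFit, eBayes with trend) fitted 16 group means over all 48 arrays, with 32 residual degrees of freedom, two-sided, with Benjamini-Hochberg adjustment over all probe sets tested in a comparison and a threshold of 0.05. The 12 comparisons were the mean of 6, 9 and 12 h minus 0 h in each of 4 lines, the same minus vector in 3 fusion lines, WT minus each mutant, and each fusion line minus vector at 0 h; single times and 12 h minus 6 h came from the same fit. Counts over all genes use 1 probe set a gene. The method was tested on simulated data.

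The members, the groups of roles, both lists of other pathway genes and the marker lists were chosen with earlier results of these data known. Every array's value is given for members among the 3 highest or 3 lowest calls of a comparison and for Hif1a, Gapdh, Ldha, Slc2a1, Vegfa, Egln3 and Ndrg1. Of the other pathway genes, the 2 highest and 2 lowest calls per comparison could be named. Upstream windows of 250 bases came from RefSeq. Alternatives were a pseudocount of 16, no filter, quantile normalization, median centring, the replicate number as a block, the compared groups alone, all probe sets of a gene averaged, array weights and leaving out each replicate. The number of arrays limits the precision.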

Additional observations from a re-analysis of the deposited data

Results flagged for a closer look

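The results below were picked out because the change after 4-HT differed between WT and a mutant line by the test of the difference itself in the limma fit. Values are log2 differences, WT minus the mutant line, and all come from comparisons that share the WT arrays.

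Against K298E cells, 8 members differed, 4 in each direction (background over all genes tested: 8.46% higher and 9.1% lower in WT). Egln3 differed by 0.88, Hk2 by 0.79, Slc2a1 by 0.71 and Hif1a by 0.48, each higher in WT. Pgf differed by -2.58, P4ha1 by -0.55, Slc2a3 by -0.44 and Pfkm by -0.40, each lower in WT. The treated WT arrays of Pgf lay between 2 and 7, near the bottom of the scale. The calls on Pfkm, Slc2a3 and P4ha1 were lost when 1 of the replicates was left out.

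Against Δ(177-191) cells, 13 members differed, 12 higher and 1 lower in WT (background 14.3% and 11.1%). Of the hypoxia targets outside glycolysis, the difference was 2.96 for Ankrd37, 1.83 for Egln3, 1.80 for Pgf, 1.23 for Egln1, 0.77 for P4ha1, 0.63 for Bnip3 and 0.54 for Kdm3a. Of the enzymes it was 1.99 for Hk2 and 0.71 for Hk1, the inducible and the housekeeping hexokinase. Of the transporters and flux regulators it was 1.49 for Slc2a1, 0.83 for Pdk1 and 0.48 for Pfkfb3. Hif1a, at -0.28, was the 1 member whose change was lower in WT. Its call was lost without replicate 2, without replicate 3 and with all its probe sets averaged. The call on Pfkfb3 was lost with any 1 replicate left out. For Pgf the treated arrays of both lines lay between 2 and 9, near the bottom of the scale. These lines also differed at 0 h: the mean signal of Ankrd37 was 25.7 in WT and 263 in Δ(177-191) cells, and that of Slc2a1 was 323 and 1433. The part of the starting level in the difference was not tested.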

How the results depend on the processing

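Of 213 member results past the threshold, 134 kept it under every alternative run, and 31 of 56 counts of members stayed within 1.5 times. With each array centred on its median, 9 members were lower in WT cells over all times and 4 at 6 h (14 and 8 before), 6 lower in vector cells at 12 h (15), 6 higher in K298E relative to vector (12), 3 higher in Δ(177-191) cells (1), 0 lower in WT minus Δ(177-191) (1) and 1 higher from 6 to 12 h in WT cells (2). After quantile normalization 7 were lower in K298E cells (3), 1 lower in WT relative to vector (0) and 2 higher in Δ(177-191) cells at 12 h (1). It also turned 4 values that had not passed: -0.13 for Ldha in vector cells, -0.15 for Aldoa in Δ(177-191) cells, 0.21 for Pkm in WT relative to vector and -0.17 for Ldha in WT at 0 h. With all probe sets of a gene averaged, 5 were lower in K298E cells (3), 1 lower in WT relative to vector (0), 8 lower in WT minus K298E (4), 14 lower from 6 to 12 h in WT (6) and 9 higher in K298E cells at 12 h (4). With array weights the counts were 1 lower in WT relative to vector and 8 lower in WT minus K298E. With the compared groups alone they were 1 lower in WT relative to vector, 0 lower in WT minus Δ(177-191), 2 higher in WT at 0 h, 1 higher in vector cells at 6 h, 0 lower from 6 to 12 h in vector and 1 higher in WT cells. Without the filter, 1 was higher in WT and 0 lower in K298E cells from 6 to 12 h. The cause was not tested.

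With 1 replicate left out of every group, the counts ranged as follows: K298E cells 0 to 1 higher and 1 to 3 lower, Δ(177-191) cells 1 to 2 higher, K298E relative to vector 4 to 7 higher, WT minus K298E 2 to 3 lower, WT minus Δ(177-191) 0 to 2 lower, K298E at 0 h 2 to 7 lower and Δ(177-191) at 0 h 3 lower each time. From 6 to 12 h they were 4 to 7 higher and 0 to 1 lower in vector, 1 higher in WT, 0 lower in K298E, and 2 to 5 higher in K298E minus vector. At single times they were 7 to 8 lower in vector at 12 h, 0 higher and 10 to 14 lower in K298E at 6 h 1 to 3 higher in K298E at 12 h, and, against the vector change at 12 h, 6 to 9 higher in K298E cells.

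Whether replicate numbers pair the arrays was not tested. Of 360 same-numbered pairs of arrays of different groups, 109 correlated above 0.1 in their deviations from the group means. The mean correlation was 0.0344 for same-numbered pairs and -0.0171 for pairs of other numbers. With the replicate number as a block, 2 members rose in Δ(177-191) cells (1 without it), and no other count moved by over 1.5 times and no call on a member was lost.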

Other observations

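Genes of the same pathways outside the list were read from an additional HIF list (35 genes, 26 tested) and an additional sugar-metabolism list (29 genes, 22 tested). Of the HIF list 12 genes fell in vector cells (background over all genes tested 13.5%). In WT cells 9 fell and 3 rose (background 19.6% and 16.6%), in K298E cells 5 fell and 1 rose (3.54% and 2.84%), and in the Δ(177-191) line 11 fell and 3 rose (21.2% and 14.4%). Ak4, the mitochondrial adenylate kinase induced by HIF, gave in WT cells 221, 230 and 229 at 0 h, 585, 583 and 565 at 6 h, 422, 429 and 418 at 9 h, and 452, 466 and 472 at 12 h. Ak4 in Δ(177-191) cells gave 654, 695 and 726 at 0 h, 328, 337 and 313 at 6 h, 316, 390 and 425 at 9 h, and 497, 511 and 469 at 12 h. Ak4 rose by 1.08 ± 0.07 in WT cells and differed from its change in Δ(177-191) cells by 1.90 ± 0.10 (adjusted p = 6.83e-18), the same directions as Egln3 and Hk2. Hilpda, a lipid-droplet protein induced by hypoxia, rose in WT cells as well (0.46 ± 0.11). Ccng2, a cyclin-like gene linked to growth arrest, changed by -1.21 ± 0.08 in vector cells and rose by 0.69 ± 0.08 in Δ(177-191) cells. Car9, the cell-surface carbonic anhydrase used as a hypoxia marker, fell in Δ(177-191) cells (-1.53 ± 0.18), having started higher there than in vector cells (0.73 ± 0.21).

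Genes of sugar metabolism beside glycolysis moved in both directions. Of the 22 tested genes, 7 rose and 3 fell in WT cells (background 16.6% and 19.6%). In Δ(177-191) cells 8 rose and 4 fell (background 14.4% and 21.2%). In vector cells 1 rose and 4 fell (background 10.5% and 13.5%), and in K298E cells 1 rose and 2 fell (background 2.84% and 3.54%). In WT and Δ(177-191) cells the counts that rose lie above these shares and those that fell lie under them. The difference from the shares was not tested. Gbe1, the glycogen branching enzyme, fell in vector (-1.26 ± 0.13), WT (-1.40 ± 0.13) and Δ(177-191) cells (-0.56 ± 0.13), and Gys1, glycogen synthase, fell in vector (-0.75 ± 0.12) and rose in Δ(177-191) cells (0.52 ± 0.12). Pgd, an enzyme of the pentose phosphate pathway, and Slc16a1, the lactate transporter MCT1, rose in WT cells (0.99 ± 0.10 and 0.81 ± 0.09). At 0 h the Δ(177-191) line stood apart in the gluconeogenic enzymes Fbp2 (3.99 ± 0.49) and Fbp1 (2.43 ± 0.33), whose mean signals were 17.3 in vector and 107 in Δ(177-191) cells for Fbp1.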
